A study of Mus musculus with 5 samples.

Results

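Motile cilium genes encode the dynein motors, spokes, central pair, assembly factors and transcription factors of the beating cilia that line the airways. A list of 40 gene symbols was followed by exact symbol across 5 whole-lung libraries. Of the 40, 38 have a row in the files, and 37 were measured, which here means that they averaged 1 CPM or more. CPM are read counts divided by the library total and scaled by the TMM method to make the libraries comparable. The files hold 23183 symbols, of which 14305 were measured by the same rule. Dnah3 and Dnah12 are not analysed here, and Mcidas was under the limit.

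All lungs came from female wild-type BALB/c mice, were taken 2 days after the last challenge and gave 1 library per group. The PM10/OVA/Dex group received airborne particulate matter (PM10), the allergen ovalbumin (OVA) and the glucocorticoid dexamethasone, injected into the abdomen 3 times in the final week. The PM10/OVA/CPX group received PM10, OVA and a chitinase-1 inhibitor that the submitters abbreviate CPX, injected into the abdomen 6 times over 3 weeks. The PM10/OVA group received PM10 and OVA, the PM10 group PM10 alone, and the control group no treatment. PM10 was given through the nose 4 times over 2 weeks, and OVA was injected into the abdomen before it was given through the nose. The sources used here give no age, no dose and no statement on the pooling of animals. There are no replicates, so every difference below is between single libraries, no test was made, and intervals cover counting error only.

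A motile cilium is built on a ring of microtubule doublets around a central pair. Outer and inner dynein arms make neighbouring doublets slide, radial spokes and the central pair turn sliding into a regular beat, and assembly factors load the dyneins in the cytoplasm before they enter the cilium. In the lung such cilia stand on the multiciliated cells of the airway epithelium and carry mucus upwards. FOXJ1 and RFX factors switch on these genes, and the multicilin gene Mcidas acts above Foxj1. In whole lung, fewer ciliated cells and less RNA per ciliated cell cannot be told apart.

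The DNA at the start of these genes is shown because RFX factors bind a known motif, the X-box. Whether the motif bears on the differences between libraries was not tested. Windows of 250 bases before to 50 bases after the gene start came from RefSeq (GRCm38.p6), and 31 of the members have one in the table after Spag6 was set aside. Motifs were searched on both strands. They were the X-box, as GTNNCC and GNAAC with 3 bases between them, the RFX core GTTGCC, which can lie inside an X-box, and the forkhead motif as TGTTTAC. The 5 printed windows are Hydin (chr8:110266727-110267026, plus strand), with an X-box that holds an RFX core, Ccdc113 (chr8:95533850-95534149, plus strand), Tekt1 (chr11:72361833-72362132, minus strand) and Dynlrb2 (chr8:116504765-116505064, plus strand), with RFX cores, and Dnah5 (chr15:28203516-28203815, plus strand), with no match. Capitals mark the matches, and each sequence reads 5′ to 3′ along the gene.
Hydin: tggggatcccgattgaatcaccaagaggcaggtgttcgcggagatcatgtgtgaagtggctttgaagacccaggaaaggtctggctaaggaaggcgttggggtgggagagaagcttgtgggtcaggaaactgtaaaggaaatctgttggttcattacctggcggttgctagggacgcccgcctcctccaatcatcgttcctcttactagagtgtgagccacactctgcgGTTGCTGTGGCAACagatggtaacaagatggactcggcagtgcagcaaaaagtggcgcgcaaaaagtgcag
Ccdc113: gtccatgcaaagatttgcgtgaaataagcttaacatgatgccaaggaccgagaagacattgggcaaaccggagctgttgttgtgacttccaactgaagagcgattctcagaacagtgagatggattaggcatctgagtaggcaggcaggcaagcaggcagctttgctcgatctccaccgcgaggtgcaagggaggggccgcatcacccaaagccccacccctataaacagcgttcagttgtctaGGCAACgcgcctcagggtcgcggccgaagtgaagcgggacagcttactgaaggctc
Tekt1: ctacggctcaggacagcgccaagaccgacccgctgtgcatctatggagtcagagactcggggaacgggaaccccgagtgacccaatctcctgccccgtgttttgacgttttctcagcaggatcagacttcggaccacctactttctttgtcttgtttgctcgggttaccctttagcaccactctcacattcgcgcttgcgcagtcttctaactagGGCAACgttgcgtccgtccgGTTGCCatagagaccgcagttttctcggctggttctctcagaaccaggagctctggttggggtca
Dynlrb2: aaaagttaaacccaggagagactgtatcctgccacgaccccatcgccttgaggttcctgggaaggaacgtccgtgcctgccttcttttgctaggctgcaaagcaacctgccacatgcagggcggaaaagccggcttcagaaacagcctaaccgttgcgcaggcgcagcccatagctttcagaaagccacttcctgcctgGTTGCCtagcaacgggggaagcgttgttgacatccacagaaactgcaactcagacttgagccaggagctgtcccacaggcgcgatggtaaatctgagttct
Dnah5: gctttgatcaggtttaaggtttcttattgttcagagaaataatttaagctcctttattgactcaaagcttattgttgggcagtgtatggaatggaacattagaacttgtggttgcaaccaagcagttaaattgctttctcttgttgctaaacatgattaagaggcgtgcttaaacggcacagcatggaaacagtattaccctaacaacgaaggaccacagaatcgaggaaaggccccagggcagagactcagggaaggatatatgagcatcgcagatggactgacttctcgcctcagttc
The X-box of Hydin began 21 bases before the start, the core of Ccdc113 6 bases before it, those of Tekt1 35 and 15 bases before it and that of Dynlrb2 51 bases before it. These starts are RefSeq's, while the gene positions given below are from GENCODE M21. The RefSeq start of Tekt1 lies 560 bases inside the GENCODE gene, and those of the other 4 genes lie within 41 bases of the GENCODE start.

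An X-box was present in 5 of the 31 windows (16.1%), those of Ccdc114, Spag16, Hydin, Tekt4 and Zmynd10, and in 2.49% of the 27025 genes in the table. The RefSeq start of Tekt4 lies 16975 bases inside the GENCODE gene, and that of Ccdc114 143 bases inside. The RFX core was present in 13 of the 31 (41.9%) and in 14.1% of all genes. Either motif was in 14 members (45.2%) and in 15.4% of all genes. The forkhead motif was in Ak7 alone (3.23%), beside 4.05% of all genes. A match describes the letters of a window and is not evidence of binding.

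The libraries held between 11993222 and 16929068 counts. The members took 0.0976% of the counts in PM10/OVA/Dex, 0.0957% in PM10/OVA/CPX, 0.0805% in PM10/OVA, 0.0831% in PM10 and 0.114% in control. Without Tppp3, which alone gave more than any other member, the shares were 0.0633%, 0.0651%, 0.0497%, 0.0554% and 0.0758% in the same libraries. The control library was highest and PM10/OVA lowest on both measures. Sperm genes share much of this machinery, but Prm1, Prm2, Tnp1 and Akap4, which mark sperm, were at 0 counts in all 5 libraries, and the 12 genes of the testis and sperm list summed to at most 1.68 CPM. Sntn, an apical protein of airway cilia, was at 14.1 CPM in PM10/OVA/Dex, 14.9 in PM10/OVA/CPX, 9.84 in PM10/OVA, 8.04 in PM10 and 11.5 in control. Tmem212, another ciliated cell gene, was at 19.6 CPM in PM10/OVA/Dex, 22.3 in PM10/OVA/CPX, 14 in PM10/OVA, 13.2 in PM10 and 21.6 in control. Both were named after their values were seen, and both were detected in every library.

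The control library stood apart in tissues that border the airways. All 15 measured heart muscle genes were highest there, with a sum of 761.1 CPM in PM10/OVA/Dex, 291.6 in PM10/OVA/CPX, 335.7 in PM10/OVA, 813.1 in PM10 and 3734.4 in control. Cartilage genes, which mark the large airways, summed to 72.1, 52.1, 23.7, 31.7 and 162.5 CPM in the same libraries, and fat cell genes to 274.4, 78.7, 85.5, 120.4 and 863.9 CPM. In that library 9 of the 10 measured cartilage genes and all 12 fat genes were highest. Smooth muscle genes were lower than control in PM10 (12 of 12 at least 20% lower, median log2 ratio -0.86) and in PM10/OVA (8 of 12, -0.55). Of all genes, 14.5% were that much lower in PM10 and 17.8% in PM10/OVA. Leukocyte genes lay the other way, with 12 of 12 at least 25% higher than control in PM10 (median 0.86) and in PM10/OVA (0.89). Of all genes, 15.6% were that much higher in PM10 and 19% in PM10/OVA. The leukocyte sum was 1930.5 CPM in PM10/OVA/Dex, 2514.6 in PM10/OVA/CPX, 2814.3 in PM10/OVA, 2681.4 in PM10 and 1524.5 in control.

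Against control, most members were lower in the PM10 library, by a median log2 ratio of -0.34 (range -0.85 to 0.03), while the median of all measured genes was 0.00. Log2 ratios here are of CPM + 1. The ratio lay below 0 for 36 of 37 members, as it did for 50.3% of all genes. A member was counted as lower past a fold of 5 to 4, which is 20% lower on the CPM + 1 scale, and as higher past 25%. At least 20% lower were 21 of 37, against 14.5% of all genes, and 0 of 37 were at least 25% higher, against 15.6%. No member was 2-fold lower, a size that 2.04% of all genes passed. In the PM10/OVA library the median against control was -0.42 (range -1.11 to 0.12), 35 of 37 lay below 0 (48.7% of all genes), and 27 of 37 were at least 20% lower (17.8% of all genes), with 0 of 37 at least 25% higher (19%). On the CPM + 1 scale Hydin alone was 2-fold lower there (log2 ratio -1.11), a size passed by 2.73% of genes, and Dnah5 lay just short of it (-0.99).

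**Figure D1:**
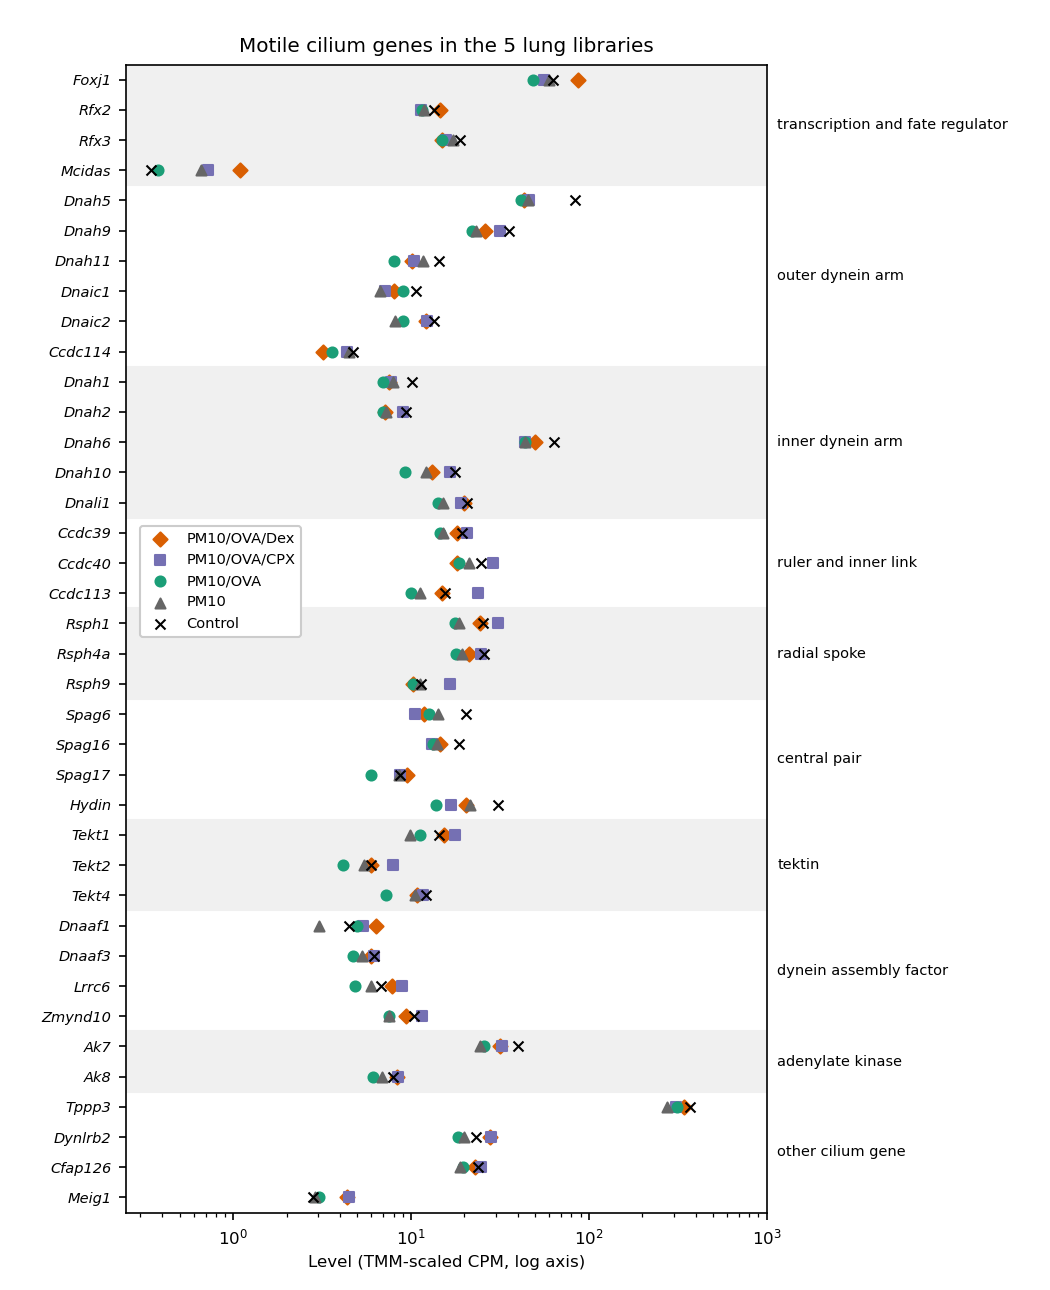
Level of the 38 members with a row in the files, in TMM-scaled CPM on a log axis, with a symbol per library and members grouped by role. Control (crosses) lies farthest right for most dynein and central pair genes, and PM10/OVA/CPX (squares) for Ccdc113, Rsph1 and the Tekt1 and Tekt2 rows.

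Outer dynein arm genes made up the role with the lowest median against control in PM10 (-0.60) and PM10/OVA (-0.60). Dnah5, Dnah9 and Dnah11 of this role are over 10 kb long. All genes of at least that length had a median against control of -0.08 in PM10 and -0.34 in PM10/OVA. The ranking of roles was not recomputed with the length trend removed. Dnah5, the heavy chain of the outer arm motor and a gene mutated in primary ciliary dyskinesia (GRCm38 chromosome 15, 28203752 to 28472052), was at 43.5 CPM in PM10/OVA/Dex, 46.0 in PM10/OVA/CPX, 41.4 in PM10/OVA, 45.8 in PM10 and 83.3 in control. The control library stood clear of all 4 exposed ones, which lay close together. The ratio over control was 0.55 (interval 0.498 to 0.607) in PM10 and 0.497 (0.453 to 0.546) in PM10/OVA. Dnaic1, an intermediate chain (chromosome 4, 41569775 to 41638158), was at 8.07 CPM in PM10/OVA/Dex, 7.11 in PM10/OVA/CPX, 9.02 in PM10/OVA, 6.71 in PM10 and 10.7 in control. The other outer arm genes were Dnah9 at 22.0 to 35.5 CPM, Dnah11 at 8.07 to 14.4 and Dnaic2 at 8.12 to 13.5, each highest in control, and the docking gene Ccdc114 at 3.20 to 4.73 CPM.

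Inner arm heavy chains shape the beat. Dnah6 (chromosome 6, 73017606 to 73221651) was at 49.9 CPM in PM10/OVA/Dex, 43.8 in PM10/OVA/CPX, 44.1 in PM10/OVA, 43.8 in PM10 and 64.0 in control. The exposed libraries again lay below control, with ratios of 0.685 (0.616 to 0.76) in PM10 and 0.689 (0.626 to 0.758) in PM10/OVA. Dnah10 (chromosome 5, 124725085 to 124834308) was at 13.2 CPM in PM10/OVA/Dex, 16.6 in PM10/OVA/CPX, 9.21 in PM10/OVA, 12.1 in PM10 and 17.7 in control, lowest in PM10/OVA, with a ratio over control of 0.52 (0.424 to 0.636). Dnah1, Dnah2 and the light intermediate chain Dnali1 were highest in control as well, at 6.94 to 10.1, 7.0 to 9.40 and 14.3 to 20.8 CPM. In PM10/OVA all 5 inner arm genes were at least 20% lower than control. For Dnah6, a long transcript, that call is lost with the length trend of all genes removed. Its log2 ratio is then -0.18 in place of -0.53. Dnah1, Dnah2 and Dnah10 are also over 10 kb long. Their values with the trend removed are not given here, so whether their calls hold is not shown. Of all 37 members, 25 were then at least 20% lower, in place of 27.

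All 4 central pair genes were at least 20% lower in PM10/OVA than in control, with a median log2 ratio of -0.55. Hydin, a very large central pair protein (chromosome 8, 110266977 to 110610253), was at 20.3 CPM in PM10/OVA/Dex, 16.9 in PM10/OVA/CPX, 13.8 in PM10/OVA, 21.5 in PM10 and 31.0 in control. It was highest in control and lowest in PM10/OVA. The ratio of PM10/OVA over control was 0.445 (0.379 to 0.522), the lowest of all members. Spag16 was at 13.2 to 18.7 CPM, and Spag6 at 10.5 to 20.4, both highest in control. Spag17 was at 5.99 CPM in PM10/OVA and between 8.61 and 9.50 in the others. The symbols Spag6 and Spag6l are synonyms in RefSeq, so Spag6 is given no position.

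Across all 4 exposed libraries, 19 of 37 members were lower than control in each, against 24.6% of all genes. At least 20% lower in each were 5 of 37, which are Dnah5, Dnah6, Spag6, Spag16 and Hydin, against 5.23% of all genes. Of these, Dnah5, Dnah6 and Hydin are over 10 kb long, and Dnah6 loses its call in PM10/OVA with the length trend removed. The set of 5 was not recomputed with that trend removed. The 18 that were not lower in each hold Foxj1, the tektins Tekt1 and Tekt2, all 3 ruler and inner link genes, all 4 assembly factors and 2 of 3 spoke genes. Because all 4 ratios share the control library, they are not separate evidence. The part of the heart, cartilage, fat and smooth muscle genes, which were mostly highest in that library, and of the leukocyte genes in the member values was not tested. Bpifa1, an upper airway secretory gene, was at 463.7 CPM in PM10/OVA/Dex, 60.1 in PM10/OVA/CPX, 88.8 in PM10/OVA, 74.5 in PM10 and 1263.6 in control. The 6 measured genes of its list, nasal and upper airway gland genes, did not share a direction in PM10/OVA over control, with 3 above and 3 below 0 (median -0.04). In PM10 over control 5 of these 6 lay below 0 (median -0.5), as did 50.3% of all genes. Krt15, a basal cell keratin, was at 6.22 CPM in PM10/OVA/Dex, 0.878 in PM10/OVA/CPX, 0.631 in PM10/OVA, 1.08 in PM10 and 19.6 in control. It was the lowest of the 8 measured basal cell genes in PM10/OVA over control, of which 6 lay below 0 (median -0.38), while Sfn, of the same list, was at 9.21 CPM in PM10/OVA and 4.73 in control. Club cell genes summed to 34111.1, 26720.2, 25907.4, 20831.4 and 30785.2 CPM in the same libraries, with PM10 and PM10/OVA below control, as they were for the members.

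Between PM10/OVA and PM10 the median log2 ratio was -0.11 (range -0.61 to 0.56), and 28 of 37 members lay below 0 (49.3% of all genes). At least 20% lower were 6 of 37 (12.9% of all genes) and at least 25% higher 2 of 37 (11.1%), counts past the fold that are near or under the shares of all genes. Dnaaf1, a dynein assembly factor (chromosome 8, 119575235 to 119598454), was at 6.39 CPM in PM10/OVA/Dex, 5.35 in PM10/OVA/CPX, 4.98 in PM10/OVA, 3.06 in PM10 and 4.5 in control. It was lowest in PM10. Like 17 of the 38 members in all, it shares exon with a gene on the opposite strand, here 480 bases with Taf1c, which makes its counts uncertain. It had 79 counts in PM10/OVA and 37 in PM10, a ratio of 1.63 (1.09 to 2.47). Hydin had a ratio of 0.641 (0.533 to 0.771). Its log2 ratio was -0.61, and -0.33 with the trend with transcript length over all genes removed.

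Against PM10/OVA the members were mostly higher in the library from mice also given the chitinase-1 inhibitor. The median log2 ratio was 0.39 (range -0.31 to 1.19), against 0.00 for all genes, and 31 of 37 members lay above 0 (49.2% of all genes). At least 25% higher were 24 of 37 (11% of all genes), and 0 of 37 were 20% lower (10.6%). With a pseudocount of 5 CPM in place of 1, which shrinks the ratios of low genes, 14 were at least 25% higher. Ccdc113 alone passed 2-fold, which 0.636% of genes did. By role, radial spoke (median 0.64), tektin (0.63) and ruler and inner link genes (0.62) were highest, each with 3 of 3 at least 25% higher, and the central pair (0.12, 1 of 4) and the regulators (0.07, 0 of 3) lowest.

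**Figure D2:**
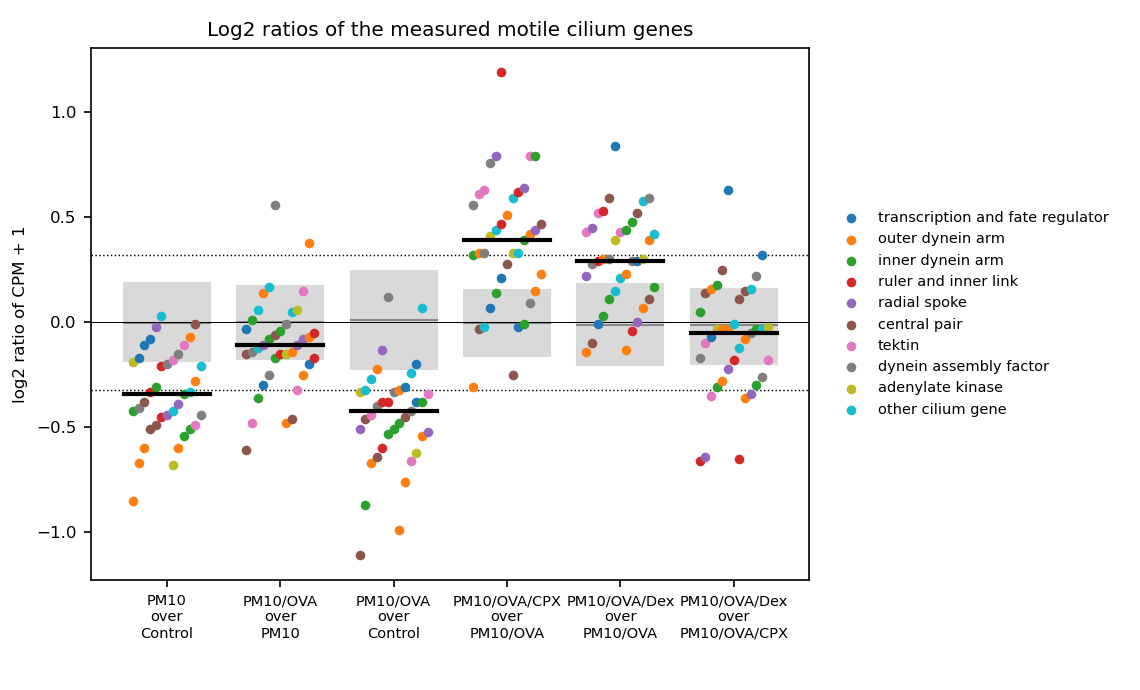
Log2 ratio of CPM + 1 for the 37 measured members (points, colored by role) in the 6 comparisons, with black bars at the member median, grey boxes for the middle quartiles of all measured genes and dotted lines at the fold of 5 to 4. In PM10/OVA over control 35 of 37 lie below 0, and in PM10/OVA/CPX over PM10/OVA 31 of 37 lie above 0.

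Ccdc113, an axonemal coiled-coil protein (chromosome 8, 95534085 to 95558890), was at 14.9 CPM in PM10/OVA/Dex, 24.0 in PM10/OVA/CPX, 9.97 in PM10/OVA, 11.2 in PM10 and 15.6 in control. It was highest in the inhibitor library, the others lying within 9.97 to 15.6 CPM, and the ratio to PM10/OVA was 2.41 (1.98 to 2.94). Ccdc40, which with Ccdc39 sets the spacing of spokes and inner arms along the doublet (chromosome 11, 119228572 to 119265238), was at 18.2 CPM in PM10/OVA/Dex, 29.1 in PM10/OVA/CPX, 18.7 in PM10/OVA, 21.2 in PM10 and 24.7 in control. Its ratio in PM10/OVA/CPX to PM10/OVA was 1.56 (1.34 to 1.83). Rsph1, a radial spoke head protein (chromosome 17, 31255019 to 31277383), was at 24.4 CPM in PM10/OVA/Dex, 31.1 in PM10/OVA/CPX, 17.6 in PM10/OVA, 18.6 in PM10 and 25.6 in control, a ratio of PM10/OVA/CPX to PM10/OVA of 1.76 (1.51 to 2.07). Rsph9 had a ratio to PM10/OVA of 1.61 (1.31 to 1.99) and stood highest in that library as well. Among the remaining spoke and ruler genes, Rsph4a was at 17.9 to 25.9 CPM, and Ccdc39 at 14.6 to 20.7 CPM.

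Tekt1, a tektin that runs inside the doublet wall (chromosome 11, 72344722 to 72362442), was at 15.4 CPM in PM10/OVA/Dex, 17.6 in PM10/OVA/CPX, 11.2 in PM10/OVA, 9.94 in PM10 and 14.4 in control. The inhibitor library was highest and PM10 lowest, with a ratio to PM10/OVA of 1.57 (1.28 to 1.93). Tekt2, at 4.16 to 7.90 CPM, had a ratio of PM10/OVA/CPX to PM10/OVA of 1.90 (1.38 to 2.63), and Dnah10 of 1.80 (1.45 to 2.24). Tekt4 was at 7.25 to 12.1 CPM, and the assembly factors Dnaaf3 and Lrrc6 were at 4.73 to 6.23 and 4.86 to 8.94 CPM. Zmynd10, a dynein assembly factor (chromosome 9, 107547298 to 107551319), was at 9.42 CPM in PM10/OVA/Dex, 11.5 in PM10/OVA/CPX, 7.51 in PM10/OVA, 7.54 in PM10 and 10.4 in control, a ratio of PM10/OVA/CPX to PM10/OVA of 1.53 (1.19 to 1.97). Dynlrb2, a dynein light chain (chromosome 8, 116504974 to 116515915), was at 28.0 CPM in PM10/OVA/Dex, 28.1 in PM10/OVA/CPX, 18.4 in PM10/OVA, 20 in PM10 and 23.2 in control. It was about equally high in both treated libraries, with a ratio to PM10/OVA of 1.53 in PM10/OVA/Dex (1.30 to 1.79) and 1.53 in PM10/OVA/CPX (1.31 to 1.79). Dnaic1 had the lowest ratio of PM10/OVA/CPX to PM10/OVA among the members, 0.788 whose interval, 0.598 to 1.03, includes 1, and for Tppp3 (0.987, 0.947 to 1.03) it did too.

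In the same library the mucous cell list was higher as well. Its sum was 2578.5 CPM in PM10/OVA/Dex, 6555.3 in PM10/OVA/CPX, 875.2 in PM10/OVA, 291.3 in PM10 and 360.6 in control. Clca1, a secreted mucous cell protein, was at 1632.5 CPM in PM10/OVA/Dex, 5154.2 in PM10/OVA/CPX, 312.8 in PM10/OVA, 7.12 in PM10 and 1.61 in control. The heart list summed to 291.6 CPM in PM10/OVA/CPX, against 335.7 CPM in PM10/OVA, and the fat list to 78.7 CPM in PM10/OVA/CPX, against 85.5 CPM in PM10/OVA. Bpifa1 was at 60.1 CPM in PM10/OVA/CPX, against 88.8 CPM in PM10/OVA. The cartilage list was higher in the inhibitor library, at 52.1 CPM in PM10/OVA/CPX, against 23.7 CPM in PM10/OVA. Mesothelial genes were lower, 8 of 9 by at least 20% (10.6% of all genes), with a median log2 ratio of -0.86. Their sum was 301.4 CPM in PM10/OVA/CPX, against 455.1 CPM in PM10/OVA. The part of mucous, cartilage and mesothelial genes in the member values was not tested.

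In the dexamethasone library the members were mostly higher than in PM10/OVA, by a median log2 ratio of 0.29 (range -0.14 to 0.84, all genes -0.01). Of 37 members, 31 lay above 0 (48.1% of all genes), 15 were at least 25% higher (13.9% of all genes), and 0 were 20% lower (15.2%). Foxj1, the forkhead factor of motile cilia (chromosome 11, 116330704 to 116335399), was at 87.5 CPM in PM10/OVA/Dex, 56.2 in PM10/OVA/CPX, 48.5 in PM10/OVA, 59.8 in PM10 and 63.2 in control. The dexamethasone library stood above the other 4, which ranged from 48.5 to 63.2 CPM, with a ratio of 1.80 (1.64 to 1.98) to PM10/OVA. Rfx2 (chromosome 17, 56775897 to 56831013) was at 14.5 CPM in PM10/OVA/Dex, 11.4 in PM10/OVA/CPX, 11.6 in PM10/OVA, 11.8 in PM10 and 13.5 in control. Rfx3 (chromosome 19, 27761721 to 28011166) was at 14.9 CPM in PM10/OVA/Dex, 15.7 in PM10/OVA/CPX, 15 in PM10/OVA, 17.3 in PM10 and 18.8 in control. The interval of the ratio to PM10/OVA was 1.01 to 1.54 for Rfx2 and 0.815 to 1.21 for Rfx3. Mcidas had 13 counts in PM10/OVA/Dex, 9 in PM10/OVA/CPX, 6 in PM10/OVA, 8 in PM10 and 6 in control. The interval of its ratio to PM10/OVA was wide in PM10/OVA/Dex, 1.02 to 9.27 around 2.89, and those of the other 5 comparisons include 1.

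The 3 tektins were at least 25% higher under dexamethasone (median 0.43), Tekt1 with a ratio of 1.38 (1.11 to 1.70). Hydin had a ratio to PM10/OVA of 1.47 (1.22 to 1.77). Meig1, a gene first known from meiotic germ cells (chromosome 2, 3409043 to 3422648), was at 4.37 CPM in PM10/OVA/Dex, 4.47 in PM10/OVA/CPX, 3.03 in PM10/OVA, 2.9 in PM10 and 2.83 in control. Its ratio to PM10/OVA was 1.44 (0.957 to 2.18), an interval that includes 1. Among the 37 measured members it alone lay above control in both PM10 (ratio 1.03, 0.645 to 1.62) and PM10/OVA (1.07, 0.705 to 1.63), within counting error. Ak7, an axonemal adenylate kinase (chromosome 12, 105705976 to 105782447), was at 31.8 CPM in PM10/OVA/Dex, 32.4 in PM10/OVA/CPX, 25.7 in PM10/OVA, 24.5 in PM10 and 40 in control, a ratio to PM10/OVA of 1.24 (1.07 to 1.43), and the related kinase Ak8 was at 6.12 to 8.46 CPM. Tppp3, a tubulin polymerization protein that is not restricted to ciliated cells (chromosome 8, 105467493 to 105471526), was at 345.4 CPM in PM10/OVA/Dex, 308.2 in PM10/OVA/CPX, 312.1 in PM10/OVA, 276.7 in PM10 and 369.5 in control. Its highest level was 1.34 times its lowest.

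In the dexamethasone library heart, fat, cartilage and most club cell genes were higher than in PM10/OVA too. All 15 heart genes and all 12 fat genes were at least 25% higher, as were 9 of 10 cartilage genes, and 9 of 14 club cell genes. Of all genes, 13.9% were. Smooth muscle was mixed, with 5 of 12 that much higher and 2 lower by at least 20% (median log2 ratio 0.17). In the mesothelial list 0 of 9 were that much higher and 1 was that much lower (median 0.01). Bpifa1 was at 463.7 CPM in PM10/OVA/Dex and 88.8 in PM10/OVA. Leukocyte genes were lower, 11 of 12 by at least 20% (15.2% of all genes), with a median log2 ratio of -0.57. Their sum was 1930.5 CPM in PM10/OVA/Dex, against 2814.3 CPM in PM10/OVA. The part of all these lists in the member values was not tested. The PM10/OVA library enters both this ratio and that of PM10/OVA/CPX over PM10/OVA, so that members above 0 in both do not give separate support.

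Set directly against each other, the treated libraries gave a median log2 ratio over the members of -0.05 in PM10/OVA/Dex over PM10/OVA/CPX (range -0.66 to 0.63). Of 37 members, 26 lay below 0, beside 52.4% of all genes. At least 25% higher was 1 of 37 (11.8% of all genes) and at least 20% lower were 6 of 37 (14.2%), counts past the fold that are near or under the shares of all genes. Foxj1 was the higher one, with a ratio of 1.56 (1.41 to 1.71). Ccdc113 (0.619, 0.511 to 0.748), Ccdc40 (0.623, 0.524 to 0.739) and Rsph9 (0.62, 0.492 to 0.778) were lower under dexamethasone. All 4 central pair genes lay above 0 (median 0.14), and all 3 ruler and inner link genes below 0 (median -0.65).

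**Figure D3:**
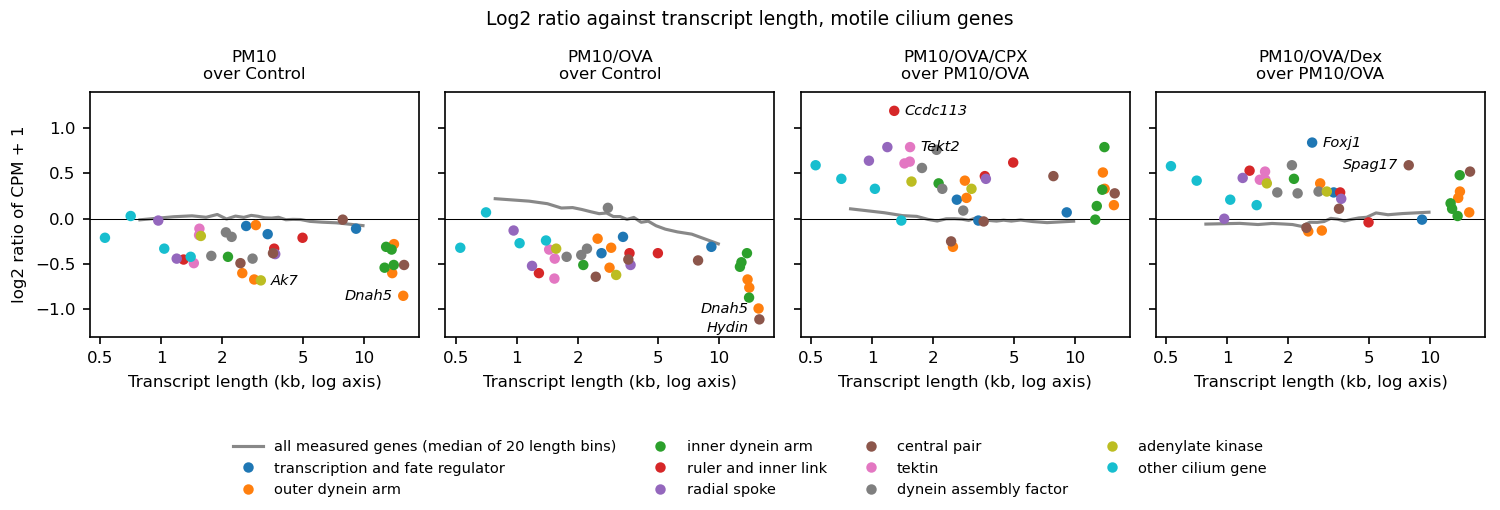
Log2 ratio of CPM + 1 against transcript length on a log axis for the 37 members, colored by role, in 4 comparisons; the grey line is the median of all measured genes in 20 length bins. In PM10/OVA over control the 8 members over 10 kb have a median of -0.71, where all genes over 10 kb have -0.34.

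Transcript length differed widely among the members, and long genes as a class had lower ratios in PM10/OVA. The 8 members of at least 10 kb, which are 7 dynein heavy chains and Hydin, had a median of -0.71 in PM10/OVA over control and the other 29 had -0.38. All 342 measured genes of that length had -0.34, and the shorter genes 0.02. Across members, Spearman's rho of the ratio with length was -0.49 (n = 37), and over 14213 genes -0.32, a description over genes of 1 pair of libraries. With the length trend of all genes removed, the median over all members was -0.44, and the long members had -0.33, against -0.45 for the others. The log2 ratio of Hydin was then -0.70 and that of Dnah5 -0.58. In PM10/OVA/CPX over PM10/OVA the medians were 0.30 for the long members and 0.42 for the others.

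Per kb of transcript, the order of levels differed from that by CPM. Tppp3 had a mean of 230.9 CPM per kb, followed by Dynlrb2 at 44.6, Foxj1 at 24.0, the axonemal protein Cfap126 at 21.3 and Rsph1 at 19.7 CPM per kb. The lowest measured members were Dnah2 at 0.581 and Dnah1 at 0.626 CPM per kb. Of the measured members, 4 were highest in PM10/OVA/Dex (16.4% of all measured genes), 14 in PM10/OVA/CPX (20.8%) and 19 in control (24.6%), and 21 were lowest in PM10/OVA (17.6%).

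Other cilium genes were taken from 8 lists of regulators, dynein, spoke, central pair, doublet, assembly and ciliated cell genes, of which 136 were measured. Their median was -0.24 in PM10 over control. At least 20% lower there were 57 of 136 (14.5% of all genes), and 6 were at least 25% higher (15.6%). In PM10/OVA over control the median was -0.18, with 48 lower (17.8% of all genes) and 6 higher (19%). In PM10/OVA/CPX over PM10/OVA the median was 0.33, with 69 higher (11% of all genes) and 5 lower (10.6%). In PM10/OVA/Dex over PM10/OVA the median was 0.19, with 46 higher (13.9% of all genes) and 7 lower (15.2%). Intraflagellar transport and BBSome genes, which all ciliated cells use, had medians of -0.16 in PM10/OVA over control and 0.05 in PM10/OVA/CPX over PM10/OVA over 41 genes. The spoke gene Nme5 was at 12.4 CPM in PM10/OVA/Dex, 17.5 in PM10/OVA/CPX, 6.88 in PM10/OVA, 7.7 in PM10 and 9.17 in control. Fam183b, a microtubule inner protein, was at 32.7 CPM in PM10/OVA/Dex, 33.3 in PM10/OVA/CPX, 26.0 in PM10/OVA, 15.7 in PM10 and 25.3 in control, lowest in PM10.

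**Figure D4:**
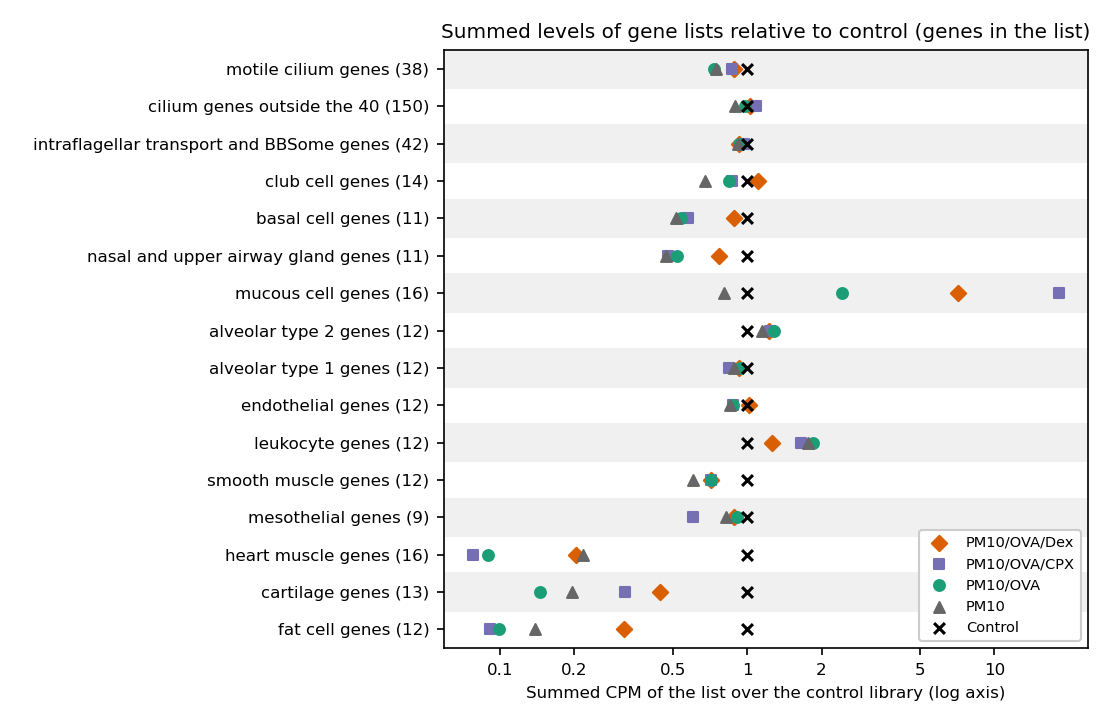
Summed CPM of the members, of other cilium genes and of lists for other cell types in each library, divided by the control library, on a log axis; the number of genes is in brackets. Heart, cartilage and fat genes lie below control in all 4 exposed libraries, and mucous cell genes lie farthest above it in PM10/OVA/CPX.

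The list of multiciliogenesis regulators outside the members, with 15 measured genes, did not share one direction. Its medians were 0.14 in PM10 over control and 0.04 in PM10/OVA/CPX over PM10/OVA. Myb, a transcription factor of the multiciliated fate, was at 15.2 CPM in PM10/OVA/Dex, 18.1 in PM10/OVA/CPX, 10.2 in PM10/OVA, 17.7 in PM10 and 17.1 in control. Ccno, a cyclin needed for centriole amplification, was at 4.29 CPM in PM10/OVA/Dex, 2.71 in PM10/OVA/CPX, 1.64 in PM10/OVA, 3.89 in PM10 and 2.65 in control. Both were lowest in PM10/OVA, and both were named after their values were seen. Of others in this list picked likewise, Ccdc67 and Foxn4 were lowest there too, and Gmnc, Trp73 and Cdc20b were not. Foxn4, at 3 to 8 counts, and Cdc20b, at 0 to 9, were under 1 CPM in every library, so their order is uncertain. Gmnc was at 6.05 CPM in PM10/OVA/Dex, 3.11 in PM10/OVA/CPX, 3.85 in PM10/OVA, 3.98 in PM10 and 3.52 in control. Trp73 was at 5.3 CPM in PM10/OVA/Dex, 3.59 in PM10/OVA/CPX, 5.87 in PM10/OVA, 5.88 in PM10 and 4.79 in control. E2f4 varied less, from 33.6 to 39.0 CPM.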

How the data were processed

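Whole-lung RNA was sequenced with a directional kit (NEBNext Ultra II), per the labels' protocols, and reads were aligned with TopHat to mm10, per the submitters' processing notes. The sources used here do not name the counting tool, annotation or strand setting. The authors deposited raw read counts per gene symbol, with 1 file per library. Counts were scaled with TMM factors (edgeR 4.0.16, R 4.3.3) and differences taken as log2 of CPM + 1. Genes averaging 1 CPM or more were kept, and genes past a fold of 5 to 4 (25% higher or 20% lower) or 2 were counted. Ratios of named genes carry an exact Clopper-Pearson conditional 95% interval. Transcript lengths are from GENCODE M21 and promoter windows from RefSeq. No test was possible with 1 library per group, and the computations were tested on simulated data. Exons of 17 of the 38 members overlap another gene on the opposite strand, so that their counts are uncertain. Among these are Ccdc39 (1234 bases shared with Ttc14), Dnah11 (642 with Cdca7l), Dnah1, Dnah9, Spag17, Tekt2 and Hydin. Members and lists were chosen with earlier results of these data known. Named are the members with the highest mean per role, all regulators, the highest and lowest ratio per comparison and up to 4 abundant genes per list. Others were named after their values were seen.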

Additional observations from a re-analysis of the deposited data

How the results depend on the processing

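The medians of all 6 comparisons kept their direction under the 8 alternatives that were run (median-of-ratios size factors, library totals alone, other pseudocounts, other filters on low genes, the length trend removed, and scaling without the control library, the last chosen after seeing the data and only for comparisons that leave control out). Of 92 recomputed counts of members past the fold of 5 to 4, 84 stayed within 1.5 times of the reported count. Pseudocounts of 5 CPM gave 14 members higher in PM10/OVA/CPX over PM10/OVA, 3 lower in PM10/OVA/Dex over PM10/OVA/CPX, and 0 higher and 3 lower in PM10/OVA over PM10. A pseudocount of 0.25 CPM gave 1 lower in PM10/OVA/CPX over PM10/OVA and 2 higher in PM10/OVA/Dex over PM10/OVA/CPX, as did median-of-ratios size factors with 2 higher. A filter at 5 CPM gave 1 higher in PM10/OVA over PM10. With the length trend removed, the log2 ratio of PM10/OVA over PM10 was 0.13 for Dnah5, 0.24 for Dnah6 and 0.06 for Tppp3, and that of PM10/OVA over control was -0.18 for Dnah6, which loses its call, -0.06 for Rfx3 and -0.39 for Tppp3, which gains one. A larger pseudocount shrinks ratios of low genes by construction. Leaving out a replicate was not possible, since each group has 1 library. No paired analysis was possible because each group holds 1 library. For Mcidas and Meig1, which have few counts, most intervals include 1 at this depth.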
